A study of Mus musculus with 8 samples.

Results

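The genes described here are Mmp10, Mmp12, Mmp13, Mmp14 and Adam19, which encode 4 matrix metalloproteinases and 1 metalloproteinase of the ADAM family. They are 5 of the 6287 genes in the deposited expression table and were found there by their symbols. They were chosen by their FPKM values in PAD4-/- against WT libraries in an earlier reading of the same table, so their differences between the genotypes are given as a description, with no test. RNA-seq was run on bone marrow derived macrophages, which are macrophages grown in culture from marrow precursors. The PAD4-/- group, from mice that lack PAD4 (the enzyme that turns arginine into citrulline in proteins), had 4 libraries, and the WT group had 4. The titles of all 8 libraries carry the mark "con", shared by both genotypes and not explained in the labels. Age, sex and strain of the mice, and the culture or animal behind each library, are not stated in the labels, and the spread between libraries may therefore be in part technical. The series' title concerns macrophage migration in diabetic kidney disease, and the comparison addresses what the loss of PAD4 does to the transcripts of these cells.

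Matrix metalloproteinases are zinc enzymes that cut proteins of the extracellular matrix and of the cell surface. They are made as inactive proenzymes, are activated by removal of a propeptide, and are held in check by tissue inhibitors of metalloproteinases (TIMPs). Mmp12 encodes macrophage elastase, an enzyme with which macrophages degrade elastin. Mmp13 encodes collagenase 3, which cuts fibrillar collagen, and Mmp10 encodes stromelysin 2, which acts on several matrix proteins and can activate other metalloproteinases. Mmp14 encodes a membrane-bound collagenase at the cell surface that also activates the proenzyme of MMP2. Adam19 encodes a membrane-anchored protease of the group that sheds surface proteins such as neuregulin. The AP-1 factors, dimers of FOS and JUN proteins, are textbook activators of several metalloproteinase genes, through a short element close to the start site.

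Mmp13, Mmp12 and Mmp10 lie in this order on the plus strand of chromosome 9, with starts 71.9 and 230 kb (Mmp12 and Mmp10) from that of Mmp13. In RefSeq's GRCm38.p6 annotation Mmp13 spans 7272514 to 7283333, Mmp12 7344397 to 7360461 and Mmp10 7502342 to 7510242 on that chromosome. Mmp14 spans 54431598 to 54442456 on chromosome 14 and Adam19 spans 46054502 to 46147347 on chromosome 11, both on the plus strand. The first-numbered GENCODE transcript of each of the 4 Mmp genes has 10 exons, and that of Adam19 has 23.

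The 250 bases before the start site are shown for each gene as a description of the sequence. They are plus-strand sequences from RefSeq's GRCm38.p6 tables, and matches to the AP-1 element TGANTCA, a palindrome searched on both strands, are in capitals. For genes with several RefSeq start sites, the one nearest to the start of the first-numbered GENCODE transcript is shown.
Mmp10, chr9:7502092-7502341: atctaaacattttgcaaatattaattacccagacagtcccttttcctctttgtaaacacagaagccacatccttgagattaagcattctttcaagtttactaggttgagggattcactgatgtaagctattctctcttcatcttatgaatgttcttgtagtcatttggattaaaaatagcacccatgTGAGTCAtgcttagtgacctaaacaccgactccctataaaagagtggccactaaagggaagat
Mmp12, chr9:7347124-7347373: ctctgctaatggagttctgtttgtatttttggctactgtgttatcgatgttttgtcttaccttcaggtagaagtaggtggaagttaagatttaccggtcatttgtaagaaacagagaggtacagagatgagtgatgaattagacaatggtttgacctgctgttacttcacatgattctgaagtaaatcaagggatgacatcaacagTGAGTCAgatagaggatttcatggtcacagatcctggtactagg
Mmp13, chr9:7272264-7272513: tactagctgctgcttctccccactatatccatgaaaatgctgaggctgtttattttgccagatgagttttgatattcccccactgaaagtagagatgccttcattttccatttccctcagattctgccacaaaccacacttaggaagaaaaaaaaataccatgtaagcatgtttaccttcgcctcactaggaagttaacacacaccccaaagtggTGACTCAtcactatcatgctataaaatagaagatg
Adam19, chr11:46055734-46055983: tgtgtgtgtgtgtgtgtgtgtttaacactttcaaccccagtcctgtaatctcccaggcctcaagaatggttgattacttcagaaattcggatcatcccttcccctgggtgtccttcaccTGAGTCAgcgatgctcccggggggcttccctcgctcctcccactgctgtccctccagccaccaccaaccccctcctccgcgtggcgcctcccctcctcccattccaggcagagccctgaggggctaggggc
Mmp14, chr14:54431348-54431597: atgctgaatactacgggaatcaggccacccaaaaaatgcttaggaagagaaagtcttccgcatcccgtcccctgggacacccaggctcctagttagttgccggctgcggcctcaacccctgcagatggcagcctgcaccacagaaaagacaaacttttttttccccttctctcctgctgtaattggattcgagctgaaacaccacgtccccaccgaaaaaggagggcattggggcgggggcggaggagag

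One AP-1 element began 63 bases before the start site of Mmp10, 44 before that of Mmp12, 35 before that of Mmp13 and 131 before that of Adam19. The window of Mmp14 held no match to these letters, and neither did the other window of Mmp12 or the other 2 windows of Adam19. Of all 32851 RefSeq windows of the same length, 6.75% held the element. Counted by gene, 7.82% of 27025 genes held it in any of their windows. The letters TATAAA, searched on both strands, were found 29 bases before the start site of Mmp10 and 16 before that of Mmp13, and in 12.4% of all windows. A match describes the sequence and does not show that a factor binds there. The part of the element in the differences between genotypes was not tested.

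The values below are FPKM as deposited, that is, sequenced fragments of a gene relative to the length of its transcript and to the size of the library. Mmp12, Mmp13 and Adam19 were lower in each PAD4-/- library than in any WT library, Mmp10 was lower on average, and Mmp14 was higher in PAD4-/- replicates 3 and 4 but not in replicates 1 and 2. Mean levels in PAD4-/- libraries were 0.456 of WT for Mmp12, 0.571 for Mmp13, 0.526 for Mmp10, 0.263 for Adam19 and 1.29 for Mmp14. Differences on the log2(FPKM + 1) scale were taken from a limma fit over the 5674 genes with a mean of at least 1 FPKM over the 8 libraries, with calls at a Benjamini-Hochberg adjusted p under 0.05. All 5 genes passed this minimum, Adam19 through its WT libraries alone. Of the 5 genes, 4 were called lower, against a background of 6.61% of all genes tested called lower, 21.1% called higher and 27.7% called either way. The groups did not overlap for 3 of the 5, against 7.12% of all genes tested with each PAD4-/- library below each WT library. Nothing is read from these counts, since the same contrast chose the genes.

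**Figure D1:**
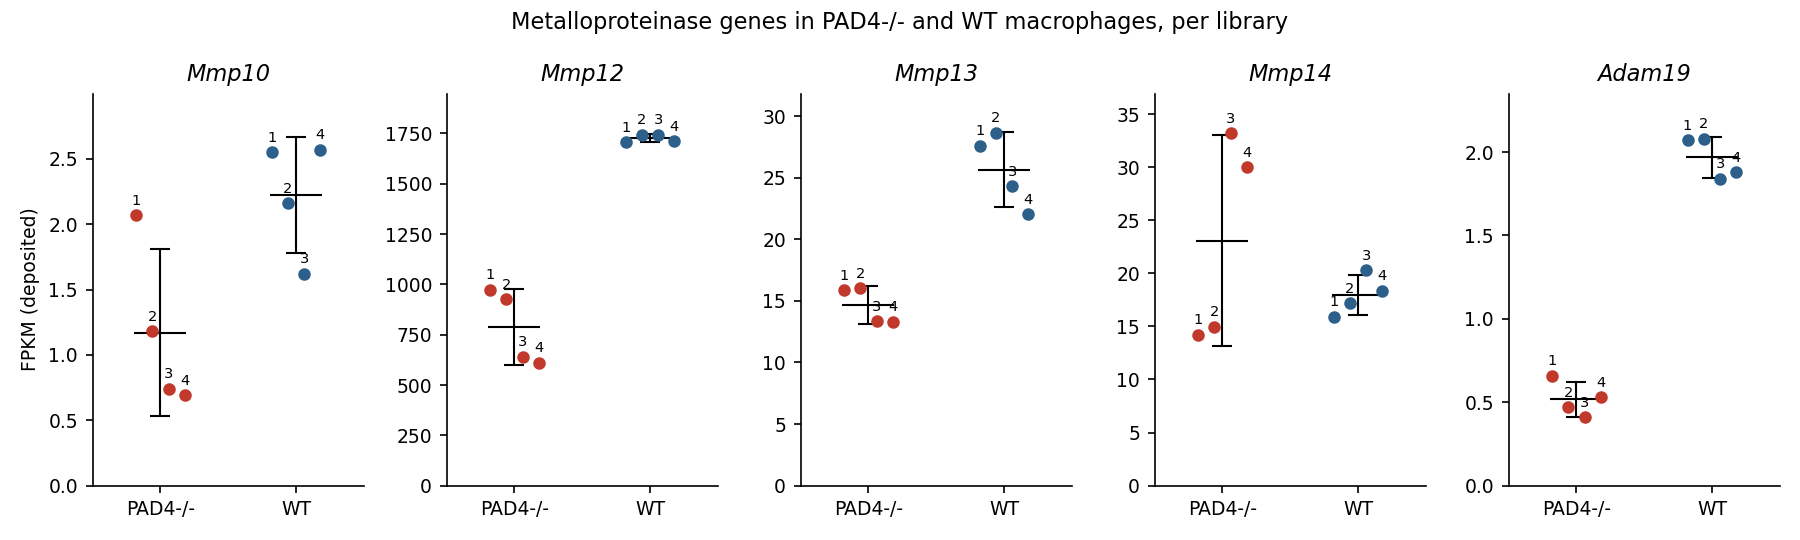
Deposited FPKM of Mmp10, Mmp12, Mmp13, Mmp14 and Adam19 in each library (points, with replicate numbers), with the mean and SD of each genotype (black, n = 4). Each panel has its own linear axis from 0. PAD4-/- libraries lie below all WT libraries for Mmp12, Mmp13 and Adam19, and PAD4-/- replicates 3 and 4 stand above the rest for Mmp14.

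Macrophage elastase was by far the most abundant of the 5 transcripts. Mmp12 had 974, 925, 640.3 and 612 FPKM in PAD4-/- replicates 1 to 4, against 1706, 1744, 1743 and 1712 FPKM in WT replicates 1 to 4. The WT libraries were nearly alike, and the PAD4-/- libraries lay below them in an upper and a lower pair, replicates 1 and 2 above replicates 3 and 4. The coefficient of variation was 23.9% in PAD4-/- and 1.17% in WT libraries. Mmp12 averaged 788 ± 188 FPKM in PAD4-/- and 1726 ± 20.2 FPKM in WT libraries (SD, n = 4 each), a log2 difference of -1.16 (SE 0.15). At this level Mmp12 stood above 98.9% of the listed genes in PAD4-/- and above 99.7% in WT libraries. The 5 transcripts together summed to between 656 and 1006 FPKM in PAD4-/- and between 1754 and 1794 FPKM in WT libraries, and Mmp12 made up 93.1% to 96.7% of this sum in PAD4-/- and 97.2% to 97.4% in WT libraries.

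Collagenase 3 showed a smaller and more even difference. Mmp13 had 15.9, 16.1, 13.3 and 13.3 FPKM in PAD4-/- replicates 1 to 4, against 27.6, 28.7, 24.3 and 22.0 FPKM in WT replicates 1 to 4. The highest PAD4-/- library lay 5.99 FPKM below the lowest WT library. The mean was 14.6 ± 1.53 FPKM in PAD4-/- and 25.7 ± 3.04 FPKM in WT libraries (SD, n = 4 each), and the log2 difference was -0.77 (SE 0.092). PAD4-/- replicates 3 and 4 were again the lower pair, but the pairs differed by less than for Mmp12.

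Stromelysin 2 was a weak transcript with wide spread. Mmp10 had 2.07, 1.18, 0.74 and 0.69 FPKM in PAD4-/- replicates 1 to 4, against 2.55, 2.16, 1.62 and 2.57 FPKM in WT replicates 1 to 4. PAD4-/- replicate 1 lay among the WT libraries, and the other 3 PAD4-/- libraries lay below them. The mean was 1.17 ± 0.639 FPKM in PAD4-/- and 2.23 ± 0.445 FPKM in WT libraries (SD, n = 4 each), with a log2 difference of -0.60 (SE 0.19). On this scale the change of a transcript near 1 FPKM is understated, and with PAD4-/- replicates 3 and 4 left out the log2 difference was -0.31. Mmp10 has a close paralog in Mmp3, and how the authors' counting divided reads between them is not stated in the labels.

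Adam19 was the weakest of the 5 transcripts in PAD4-/- libraries and had the largest relative difference. It had 0.66, 0.47, 0.41 and 0.53 FPKM in PAD4-/- replicates 1 to 4, against 2.07, 2.08, 1.84 and 1.88 FPKM in WT replicates 1 to 4. All PAD4-/- libraries were low, and here replicates 3 and 4 did not form a lower pair. The mean was 0.52 ± 0.107 FPKM in PAD4-/- and 1.97 ± 0.125 FPKM in WT libraries (SD, n = 4 each). The log2(FPKM + 1) difference of -0.97 (SE 0.070) understates this ratio, and the authors' deposited table gives a log2 fold change of -2.04 for PAD4-/- over WT. For the other genes the authors' deposited table gives -1.01 for Mmp10, -1.21 for Mmp12, -0.89 for Mmp13 and 0.27 for Mmp14. The 5674 genes tested were ordered from the lowest ratio of PAD4-/- to WT mean. In this order Adam19 had rank 3, Mmp12 rank 13, Mmp10 rank 25 and Mmp13 rank 37. These ranks are a description only, since the same contrast chose the genes and Adam19 passed the minimum through its WT libraries alone.

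The membrane-bound collagenase gene behaved differently from the secreted enzymes. Mmp14 had 14.2, 15.0, 33.2 and 30.0 FPKM in PAD4-/- replicates 1 to 4, against 15.9, 17.2, 20.3 and 18.4 FPKM in WT replicates 1 to 4. PAD4-/- replicates 1 and 2 were below every WT library, and replicates 3 and 4 were above every WT library, so the groups overlapped. Mmp14 averaged 23.1 ± 9.90 FPKM in PAD4-/- and 17.95 ± 1.87 FPKM in WT libraries (SD, n = 4 each), with a log2 difference of 0.25 (SE 0.28). Without PAD4-/- replicates 3 and 4 this difference was -0.28.

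The order of the levels differed among PAD4-/- libraries. In each WT library and in PAD4-/- replicates 1 and 2 the order began with Mmp12, Mmp13 and Mmp14, whereas Mmp14 stood above Mmp13 in PAD4-/- replicates 3 and 4. Over the 4 PAD4-/- libraries the ranges of Mmp13 (13.3 to 16.1 FPKM) and Mmp14 (14.2 to 33.2 FPKM) overlapped, while in WT libraries they did not. Mmp10 and Adam19 were the lowest in all libraries. Their ranges overlapped in WT (1.62 to 2.57 and 1.84 to 2.08 FPKM) but not in PAD4-/- libraries (0.69 to 2.07 and 0.41 to 0.66 FPKM), where Mmp10 was higher.

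Ratios between transcripts within a library do not depend on how libraries are scaled. The ratio of Mmp13 to Mmp14 was 1.12, 1.07, 0.402 and 0.444 in PAD4-/- replicates 1 to 4, against 1.74, 1.67, 1.20 and 1.20 in WT replicates 1 to 4. All PAD4-/- ratios were lower than the lowest WT ratio, also in PAD4-/- replicates 1 and 2, where the Mmp14 level itself was below every WT library. The ratio of Mmp12 to Mmp14 was between 19.3 and 68.4 in PAD4-/- and between 85.8 and 107 in WT libraries, again without overlap. The ratio of Mmp12 to Mmp13 averaged 53.2 ± 7.38 in PAD4-/- and 68.0 ± 8.10 in WT libraries (SD, n = 4 each), and the groups overlapped by PAD4-/- replicate 1 at 61.3 and WT replicate 2 at 60.9. The ratio of Mmp10 to Mmp13 ranged from 0.052 to 0.130 in PAD4-/- and from 0.067 to 0.117 in WT libraries, and the first range enclosed the second. These ratios use the same libraries that chose the genes and carry no test.

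**Figure D2:**
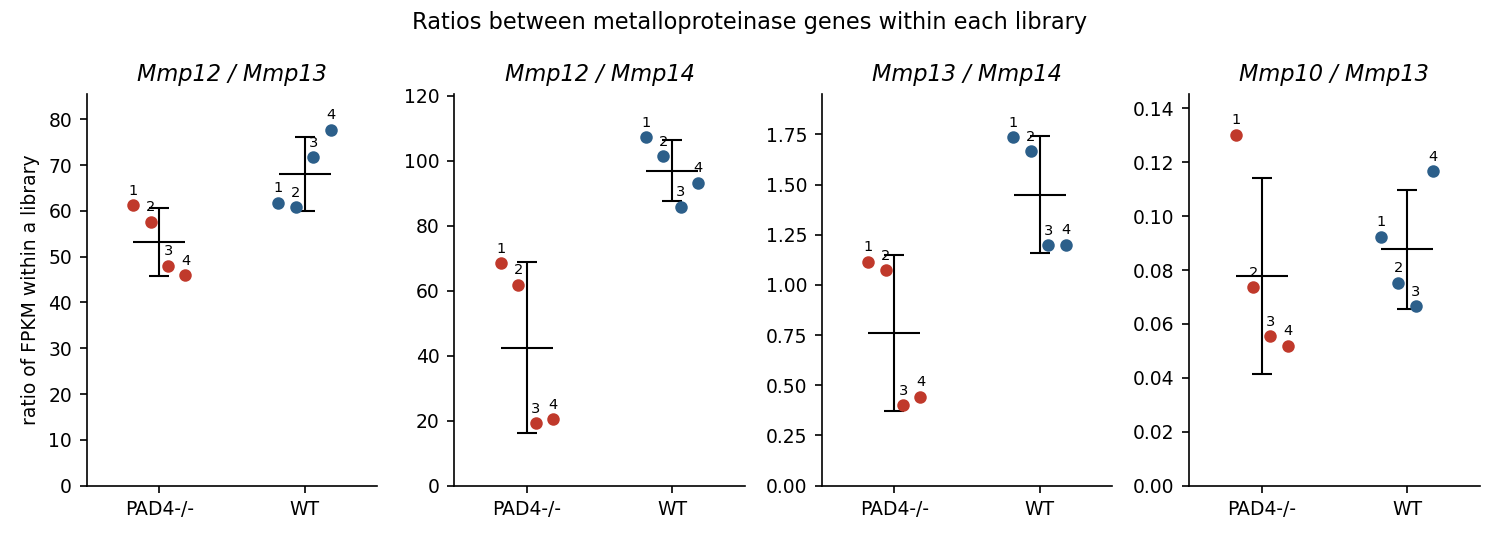
Ratio of FPKM between pairs of metalloproteinase genes within each library (points, with replicate numbers), with the mean and SD of each genotype (black, n = 4), on linear axes from 0. The ratios of Mmp12 and Mmp13 to Mmp14 are lower in all PAD4-/- libraries than in all WT libraries, and that of Mmp10 to Mmp13 overlaps.

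PAD4-/- replicates 3 and 4 stood apart from the other 6 libraries in other genes as well. The median of 25 interferon-inducible genes differed from the WT mean by 0.055, 0.055, 1.39 and 1.096 on the log2 scale in PAD4-/- replicates 1 to 4, and by -0.18 to 0.17 in WT libraries. The Mmp14 difference was -0.31, -0.24, 0.86 and 0.71 in the same 4 PAD4-/- libraries, so Mmp14 was high in the libraries in which the interferon-inducible genes were high. Mmp12 lay at -0.83, -0.90, -1.43 and -1.50, lower in these libraries, and Adam19 lay at -0.84, -1.01, -1.07 and -0.95. The part of the interferon-inducible genes in any of these differences was not tested. Over the 6287 listed genes FPKM summed to between 381573 and 403848 per library, and the number of reads behind the values is unknown.

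**Figure D3:**
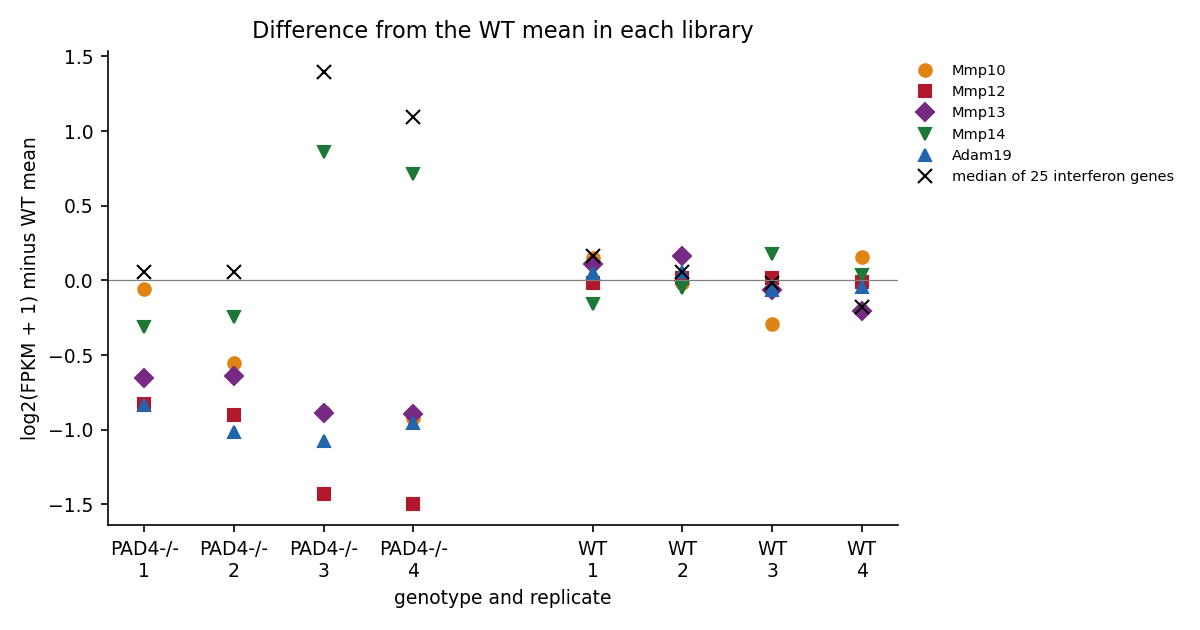
Difference of log2(FPKM + 1) from the WT mean in each library for the 5 genes (coloured symbols) and the median over 25 tested interferon-inducible genes (crosses). PAD4-/- libraries are on the left and WT libraries on the right, by replicate number, which carries no order. Mmp14 and the interferon-inducible genes are high in PAD4-/- replicates 3 and 4, and Adam19 lies between -1.07 and -0.84 in the 4 PAD4-/- libraries.

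The cells carried macrophage transcripts in every library. Of 10 macrophage markers 8 were listed, Lyz2 and Csf1r among them. Their FPKM summed to 19311 to 25196 in PAD4-/- and 17699 to 18317 in WT libraries. Most of this sum was Lyz2, with means of 20250 and 16587 FPKM. Of the 8 markers 7 were called higher and none lower, beside 21.1% of all genes tested called higher. Lyz2 and Spi1 were near the threshold (limma adjusted p = 0.0437 and 0.0449), and calls over this list were not counted under the alternatives. Of 10 osteoclast markers 4 were listed, with sums of 18.3 to 21.1 FPKM in PAD4-/- and 25.2 to 27.6 FPKM in WT libraries, and Ctsk and Acp5 were called lower. Of the other listed osteoclast markers, Nfatc1 averaged 9.04 ± 0.985 FPKM in PAD4-/- and 7.73 ± 0.417 FPKM in WT libraries (SD, n = 4 each) and was not called (limma adjusted p = 0.0753), and Dcstamp, below the minimum, had 0.35 to 0.54 FPKM in PAD4-/- and 0.23 to 0.44 FPKM in WT libraries. The 2 listed fibroblast markers of 9, Col3a1 and Pdgfra, summed to at most 0.84 FPKM in PAD4-/- and 0.43 FPKM in WT libraries, and Lcn2, the listed neutrophil marker of 12, had at most 0.52 FPKM in PAD4-/- and 1.13 FPKM in WT libraries. The 4 listed dendritic cell markers of 11, of which Irf8 alone reached the minimum, summed to 24.7 to 29.4 FPKM in PAD4-/- and 23.2 to 25.9 FPKM in WT libraries. None of the listed markers was at 0 in all libraries, and those of lymphoid, mast and erythroid cells were not analysed here. In bulk RNA, fewer cells of a type and less RNA per cell cannot be told apart, and the part of the macrophage and osteoclast markers in the metalloproteinase differences was not tested.

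By the root mean square difference between profiles over the 8 libraries, each on the log2(FPKM + 1) scale relative to its own WT mean, Mmp13 and Adam19 were the most alike among the 5 genes (0.18), followed by Mmp12 and Adam19 (0.24). The profile of Mmp14 was 0.88 to 1.17 from each of the other 4. Among the other tested genes, the nearest to Mmp12 were Ccr1 (0.088), a chemokine receptor gene, Slamf8 (0.12) and the cathepsin gene Ctsl (0.14). Ccr1 averaged 25.97 ± 6.14 FPKM in PAD4-/- and 54.4 ± 2.90 FPKM in WT libraries (SD, n = 4 each). Nearest to Mmp13 were Dhrs9 (0.071), Scd2 (0.092), a fatty acid desaturase gene, and Tnfrsf26 (0.12). Nearest to Adam19 were Gpc1 (0.096), which encodes a glypican, Arhgef18 (0.10), a guanine nucleotide exchange factor gene at 0.41 ± 0.041 FPKM in PAD4-/- and 1.68 ± 0.109 FPKM in WT libraries, and Ide (0.11), which encodes insulin-degrading enzyme. Those nearest to Mmp10 were Klf9 (0.17), Spp1 (0.18) and Frmd6 (0.18). Those nearest to Mmp14 were Nmi (0.13), Cd40 (0.13) and Ube2l6 (0.14), and Nmi and Ube2l6 are known as interferon-inducible genes. This scale understates the differences of the weak transcripts Adam19 and Mmp10, so their distances depend on the pseudocount, and distances with another pseudocount were not taken. The ratio of the PAD4-/- to the WT mean was 0.263 for Adam19, against 0.571 for Mmp13 and 0.456 for Mmp12. It was 0.510 for Gpc1, 0.528 for Ide and 0.241 for Arhgef18. Much of the likeness between profiles is the difference between genotypes that chose the 5 genes, and it says nothing on shared control.

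The chromosome 9 genes were next set against the genes around them, whose levels did not enter the choice. Within 1 Mb of Mmp13, Mmp12 and Mmp10, 4 other genes were tested, of which 3 rose and none fell in PAD4-/- libraries. Birc2, which encodes an inhibitor of apoptosis protein and starts 546 kb from the Mmp13 start, had 4.61, 4.89, 6.72 and 5.85 FPKM in PAD4-/- replicates 1 to 4, against 3.84, 3.20, 3.06 and 3.06 FPKM in WT replicates 1 to 4. Its log2 difference was 0.60 (SE 0.10, limma adjusted p = 0.00533), and it was called in all 16 alternatives that tested it. Birc3, a second inhibitor of apoptosis gene beside it, averaged 33.3 ± 5.16 FPKM in PAD4-/- and 26.4 ± 1.68 FPKM in WT libraries (SD, n = 4 each; limma adjusted p = 0.0401). Tmem123 averaged 43.1 ± 4.73 FPKM in PAD4-/- and 35.6 ± 0.999 FPKM in WT libraries (SD, n = 4 each; limma adjusted p = 0.0268), and its PAD4-/- replicate 2 lay among the WT libraries. The calls of Birc3 and Tmem123 were lost with median-of-ratios scaling, without any 1 of the 4 WT replicates and without PAD4-/- replicate 3 or 4 or both, that of Birc3 also with the replicate block, with adjusted p up to 0.175 and 0.128. Dcun1d5, 95.9 kb on the other side of Mmp13, averaged 19.5 ± 1.58 FPKM in PAD4-/- and 18.8 ± 0.565 FPKM in WT libraries (limma adjusted p = 0.550). Within 1 Mb of Mmp14, 4 of 13 tested genes rose and none fell, and within 1 Mb of Adam19 none of 6 was called. For comparison, 21.1% of all tested genes were called higher.

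**Figure D4:**
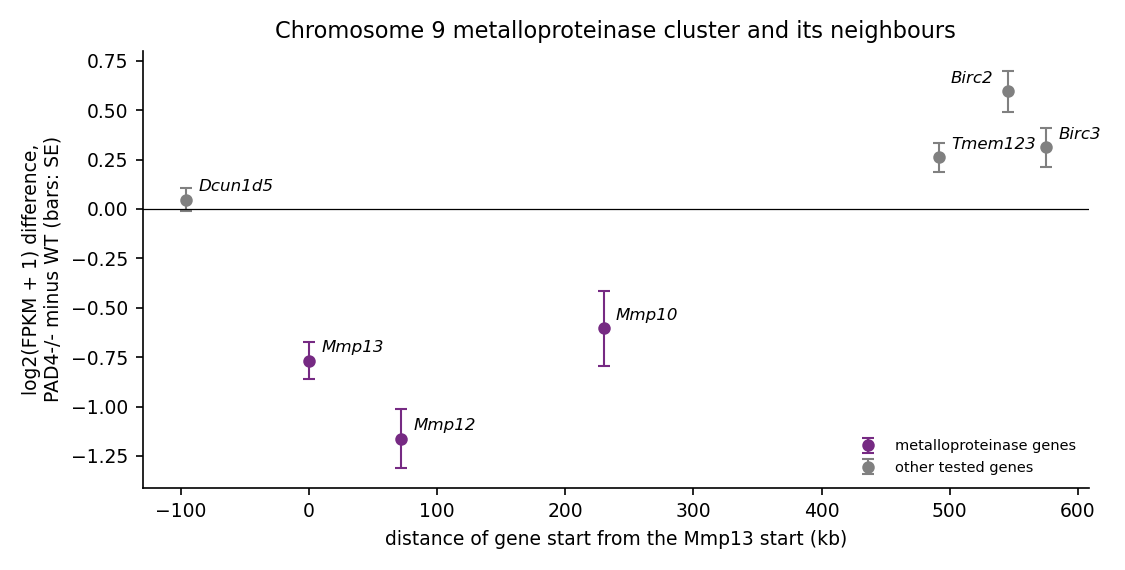
Difference of log2(FPKM + 1), PAD4-/- minus WT, with its SE from the limma fit, for Mmp13, Mmp12 and Mmp10 (purple) and the other tested genes within 1 Mb (grey), by distance of the gene start from that of Mmp13 in kb. The 3 metalloproteinase genes lie below 0, and Tmem123, Birc2 and Birc3, 492 to 575 kb away, lie above it.

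Genes that act with the metalloproteinases were taken from 9 lists holding 166 genes, of which 69 were listed and 57 tested. In PAD4-/- libraries 17 of the 57 rose and 15 fell, with a median log2 difference of 0.10, beside 21.1% higher and 6.61% lower and a median of 0.082 over all genes tested. The lists were written with earlier results of these data known. The split over all genes turns on scaling: 1195 genes were higher and 375 lower as deposited, and 514 were higher and 636 lower with median-of-ratios scaling. Leaving out 1 library gave 647 to 1682 higher and 235 to 544 lower genes, and those that moved a count by over 1.5 times were WT replicates 1, 2 and 3 and PAD4-/- replicates 3 and 4 (661, 647, 654, 677 and 731 higher), and WT replicates 2 and 3 (235 and 241 lower).

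Few other metalloproteinases were tested, 1 matrix metalloproteinase, which fell, and 2 ADAM genes, which rose. Of all genes tested, 21.1% were called higher and 6.61% lower. Mmp19, the sole other matrix metalloproteinase listed of 19, had 21.9, 22.0, 21.0 and 19.4 FPKM in PAD4-/- replicates 1 to 4, against 24.4, 26.2, 25.6 and 25.9 FPKM in WT replicates 1 to 4. It fell by 0.27 on the log2 scale (SE 0.050, limma adjusted p = 0.00659), with no overlap between groups. Both tested relatives of Adam19 rose. Adam15 had 176, 192, 212 and 205 FPKM in PAD4-/- replicates 1 to 4, against 144, 139, 136 and 149.5 FPKM in WT replicates 1 to 4 (log2 difference 0.46, SE 0.061, limma adjusted p = 0.00173). Adam17, which encodes the enzyme that sheds tumour necrosis factor, had 136, 133, 160.0 and 155 FPKM in PAD4-/- replicates 1 to 4, against 124, 121, 118 and 116 FPKM in WT replicates 1 to 4 (log2 difference 0.28, limma adjusted p = 0.0134). These relatives were far more abundant than Adam19, and their PAD4-/- libraries lay above all WT libraries. Adam33 and Adamts4, the other listed members, were below the minimum.

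Of the inhibitors, 3 of 12 were listed, and the TIMP genes were not analysed here. Bst2, which encodes tetherin, an interferon-inducible protein that also binds the MMP14 protein, averaged 275 ± 58.4 FPKM in PAD4-/- and 162 ± 5.08 FPKM in WT libraries (SD, n = 4 each; log2 difference 0.73, limma adjusted p = 0.00715). Serpinb2 was below the minimum.

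Of the activators, 4 of 11 were listed and 2 tested, with 1 higher and 1 lower, beside 21.1% higher and 6.61% lower of all genes tested. Plaur, the receptor that holds urokinase at the cell surface where plasmin is made, had 35.5, 33.1, 22.3 and 21.8 FPKM in PAD4-/- replicates 1 to 4, against 48.7, 49.5, 47.6 and 48.2 FPKM in WT replicates 1 to 4. Its libraries formed the same 2 pairs as those of Mmp12, and it fell by 0.80 on the log2 scale (SE 0.15, limma adjusted p = 0.00844). Furin, the convertase that removes the propeptide of MMP14, averaged 56.0 ± 2.23 FPKM in PAD4-/- and 48.1 ± 3.01 FPKM in WT libraries (SD, n = 4 each; limma adjusted p = 0.0160). The call of Furin was lost with median-of-ratios scaling (adjusted p = 0.111), and 2 activators were called higher with TPM scaling or with no minimum. The authors' deposited q-values were 1.28e-07 for Plaur and 0.144 for Furin.

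Among surface substrates and partners, 1 of 6 tested genes rose and 2 fell, beside 21.1% higher and 6.61% lower of all genes tested. Cd44, the hyaluronan receptor that anchors metalloproteinases at the surface and is cut by MMP14, had 42.9, 41.4, 33.1 and 34.2 FPKM in PAD4-/- replicates 1 to 4, against 58.7, 60.3, 56.2 and 51.8 FPKM in WT replicates 1 to 4 (log2 difference -0.58, limma adjusted p = 0.00314). The syndecan gene Sdc1 fell to 1.75 ± 0.258 FPKM in PAD4-/- libraries, against 3.29 ± 0.469 FPKM in WT libraries (SD, n = 4 each; limma adjusted p = 0.00300), whereas Sdc4 rose to 57.3 ± 6.10 FPKM, against 43.4 ± 3.14 FPKM in WT libraries (limma adjusted p = 0.00829). Among matrix substrates 1 of 5 tested genes rose and 1 fell, beside the same shares of all genes tested. Fn1, which encodes fibronectin, averaged 26.0 ± 1.78 FPKM in PAD4-/- and 19.95 ± 1.45 FPKM in WT libraries (SD, n = 4 each; limma adjusted p = 0.00524). Spp1, which encodes osteopontin, had 2860, 2506, 1980 and 1922 FPKM in PAD4-/- replicates 1 to 4, against 3440, 3430, 3575 and 3322 FPKM in WT replicates 1 to 4 (log2 difference -0.59, limma adjusted p = 0.00914). Eln, the gene of the elastin that macrophage elastase cuts, was not analysed here. Without PAD4-/- replicates 3 and 4, 2 surface genes and 2 matrix genes rose.

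Of 10 other proteases that reach the matrix, 6 were listed and tested. All 6 were called lower, beside 6.61% of all genes tested, with a median log2 difference of -0.44. This count is a description only, since the list was written with earlier results of these data known. Ctsk and Ctsl, cathepsins known to act on matrix proteins, averaged 4.69 ± 0.946 and 1084 ± 178 FPKM in PAD4-/- libraries, against 10.5 ± 1.42 and 2159 ± 111 FPKM in WT libraries (SD, n = 4 each; limma adjusted p = 0.00130 and 0.000669). Ctss averaged 1775 ± 137 FPKM in PAD4-/- and 2487 ± 100.2 FPKM in WT libraries (limma adjusted p = 0.00108). Lgmn, which encodes legumain, averaged 541 ± 32.1 FPKM in PAD4-/- and 708 ± 20.3 FPKM in WT libraries (limma adjusted p = 0.00130).

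Of 12 tested genes for signals that induce metalloproteinases, 3 were called higher and 2 lower, beside 21.1% higher and 6.61% lower of all genes tested. Tnf averaged 143 ± 14.4 FPKM in PAD4-/- and 116 ± 4.56 FPKM in WT libraries (SD, n = 4 each; limma adjusted p = 0.0126), and Il1b averaged 11.3 ± 1.33 FPKM in PAD4-/- and 8.69 ± 0.557 FPKM in WT libraries (limma adjusted p = 0.0145, and 0.0551 without PAD4-/- replicates 3 and 4). The authors' deposited q-values were 0.0125 for Tnf and 0.0925 for Il1b. Csf1r, the receptor for the growth factor on which these cells depend, averaged 696 ± 54.0 FPKM in PAD4-/- and 536 ± 12.4 FPKM in WT libraries (limma adjusted p = 0.00302). Csf2rb, the shared receptor chain for GM-CSF, averaged 36.5 ± 2.86 FPKM in PAD4-/- and 43.7 ± 1.83 FPKM in WT libraries (limma adjusted p = 0.0140). Higher calls in this list numbered 5 with TPM scaling and 6 without PAD4-/- replicate 1, and 1 lower call was left without WT replicate 1, 2 or 3 or PAD4-/- replicate 4.

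Of 21 tested transcription factors linked to metalloproteinase genes, 8 rose and 2 fell, beside 21.1% higher and 6.61% lower of all genes tested. Jun, the partner of FOS in AP-1, had 59.6, 63.0, 57.2 and 54.9 FPKM in PAD4-/- replicates 1 to 4, against 65.1, 65.3, 71.4 and 75.5 FPKM in WT replicates 1 to 4, and the groups did not overlap (log2 difference -0.24, limma adjusted p = 0.0200). The call of Jun was lost with the replicate block (adjusted p = 0.0527), without PAD4-/- replicate 3 (0.0511) or 4 (0.0531) or both (0.0871), and without WT replicate 3 (0.0599). Its relative Junb moved the other way, with a mean of 97.9 ± 10.5 FPKM in PAD4-/- and 79.4 ± 3.55 FPKM in WT libraries (SD, n = 4 each; limma adjusted p = 0.0166), a call lost without WT replicate 2 (0.0528) or 3 (0.0519) and without PAD4-/- replicates 3 and 4 (0.0514). Of the other AP-1 genes tested, Jund, Fosl1, Fosl2, Atf3 and Batf were not called, with log2 differences of 0.26, -0.24, -0.00031, -0.26 and 0.71. The macrophage factor Maf rose, with a ratio of 1.37 of the PAD4-/- to the WT mean (limma adjusted p = 0.0138). Nfkb1 rose to 57.2 ± 5.15 FPKM, against 47.3 ± 0.908 FPKM in WT libraries (limma adjusted p = 0.0131). Cebpb fell to 116 ± 8.53 FPKM, against 138 ± 7.24 FPKM in WT libraries (limma adjusted p = 0.0151), a call lost without WT replicate 2 (0.0512) and without PAD4-/- replicates 3 and 4 (0.0516). Jun and Junb were named for the AP-1 element after their values were seen. The 8 higher factors became 5 with median-of-ratios scaling, 3 to 5 without 1 of WT replicates 1 to 4, 4 without PAD4-/- replicate 4 and 5 without PAD4-/- replicates 3 and 4. The 2 lower ones became 1 with the replicate block and without WT replicate 2 or 3 or PAD4-/- replicate 3 or 4, 4 without PAD4-/- replicate 2, and 0 without PAD4-/- replicates 3 and 4.

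**Figure D5:**
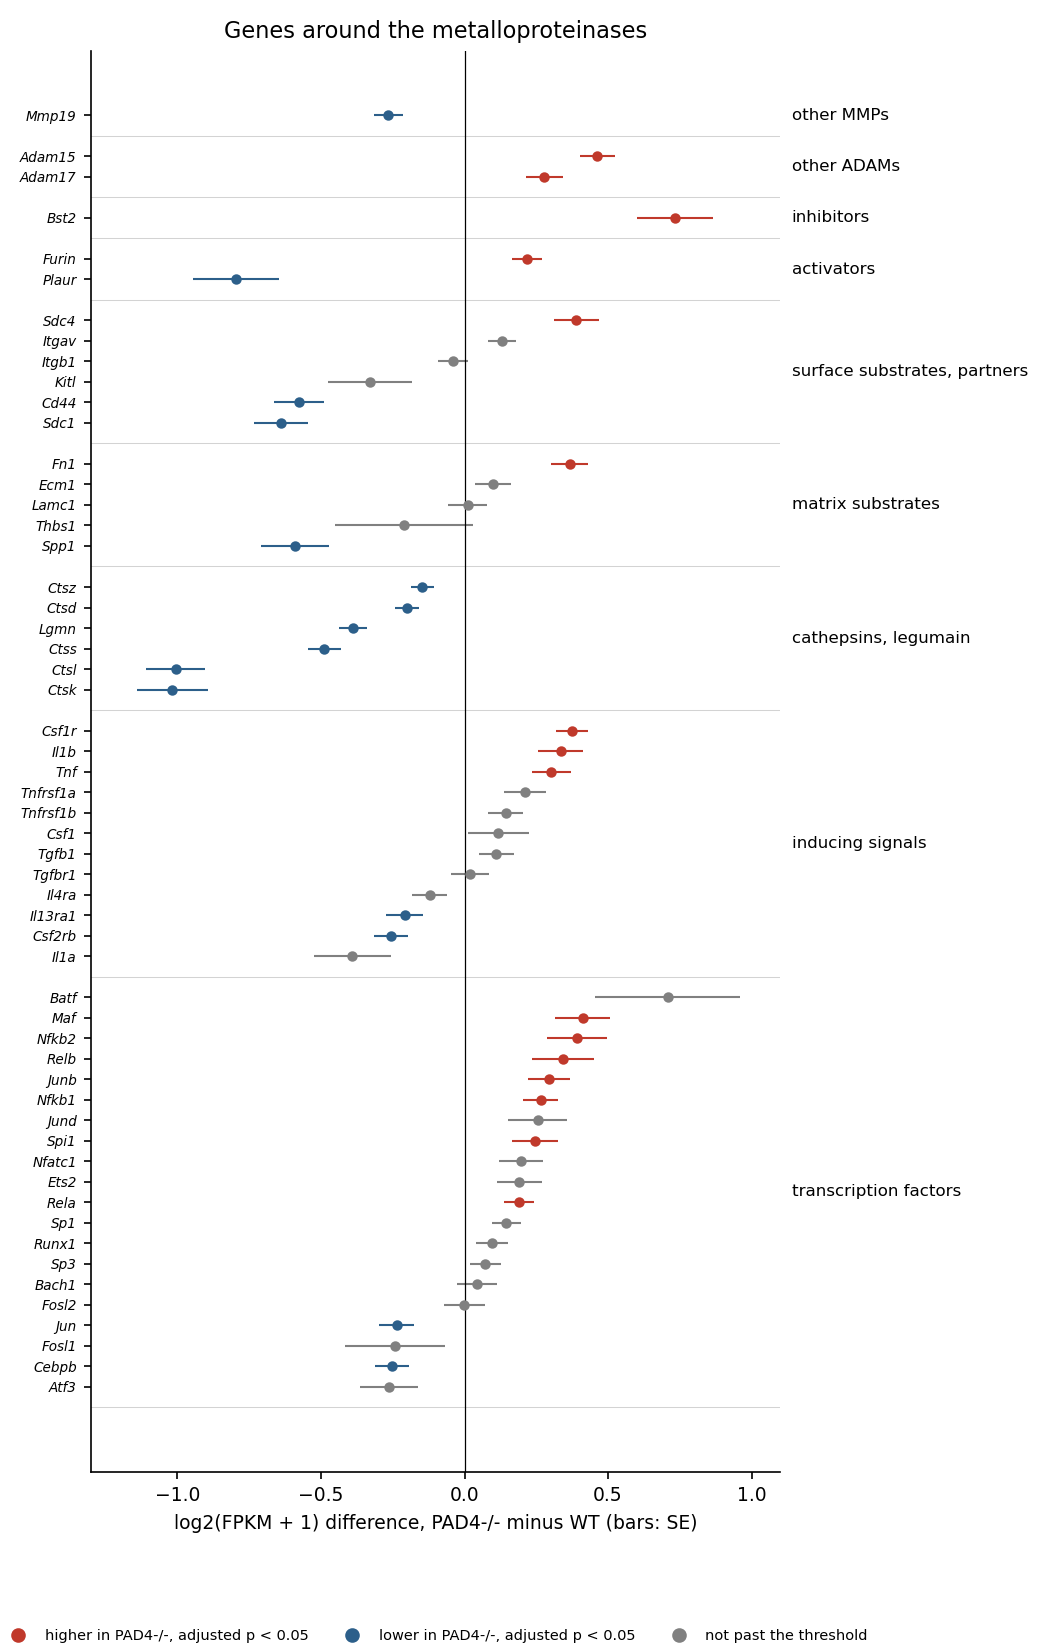
Difference of log2(FPKM + 1), PAD4-/- minus WT, with its SE from the limma fit, for tested genes of 9 lists of other metalloproteinases, inhibitors, activators, substrates, inducing signals and transcription factors. Red points were called higher, blue points lower and grey points neither. All 6 cathepsin and legumain genes lie below 0, the ADAM genes lie above it, and the transcription factors lie on both sides.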

How the data were processed

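RNA from cultured bone marrow derived macrophages was extracted with Trizol and sequenced from BGISEQ libraries, per the labels' protocols, with 4 PAD4-/- and 4 WT libraries assigned by their titles. The authors deposited FPKM per gene to 2 decimals, made with HISAT, Bowtie2, RSEM and the GRCm38 build, per the submitters' processing notes; no version or setting is given there. The same table holds the authors' log2 fold change of PAD4-/- over WT and their q-value, per the file headers. Per library the table holds FPKM and no read counts, so the depth behind a value is unknown, no counting interval is given, and tests on read counts were not run. How the 6287 listed genes were chosen is not stated.

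Here log2(FPKM + 1) was fitted across all genes with limma 3.58.1 (R 4.3.3; trend and robust empirical Bayes, two-sided) over the 5674 genes with a mean of at least 1 FPKM, with Benjamini-Hochberg adjustment over all of them and calls below 0.05. No batch is given in the labels. The procedure was tested on simulated data. The 5 genes and all lists were chosen with earlier results of these data known. Named genes were all tested inhibitors and other matrix metalloproteinases, up to 4 called genes with the smallest adjusted p from each other list, and the 3 nearest profiles of each of the 5 genes; some genes this rule takes in are not reported here, while counts over lists include them. The chromosome 9 neighbours, Jun, Junb and the named cell type markers were added after the data were seen. Coordinates are from RefSeq's GRCm38.p6 table, matched by gene identifier, exon counts from GENCODE M21 and promoter letters from RefSeq. Alternatives covered the pseudocount, the minimum, scaling, empirical Bayes settings, a replicate block, each library left out in turn and, added after the data were seen, PAD4-/- replicates 3 and 4 left out together.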

Additional observations from a re-analysis of the deposited data

Results flagged for a closer look

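In groups of 4 libraries, 1 library lay far from the other 3 for 6 of the 49 genes looked at, in 6 of 98 groups, where chance flags about 1 in 20 groups. None of the 5 metalloproteinase genes was among them. Tmem123 had 36.03 FPKM in PAD4-/- replicate 2, against 45.02 to 46.05 FPKM in the other PAD4-/- libraries. Fn1 had 28.65 FPKM in PAD4-/- replicate 2, against 24.89 to 25.38 FPKM in the other 3. Lgmn had 588.98 FPKM in PAD4-/- replicate 1, against 521.64 to 531.98 FPKM in the other 3. Ide had 18.70 FPKM in PAD4-/- replicate 3, against 17.37 to 17.57 FPKM in the other 3. Csf2rb had 41.02 FPKM in WT replicate 1, against 44.38 to 45.06 FPKM in the other WT libraries. Acp5 had 5.91 FPKM in WT replicate 4, against 7.92 to 8.24 FPKM in the other 3.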

How the results depend on the processing

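Mmp12, Mmp13, Mmp10 and Adam19 were lower in PAD4-/- libraries under each alternative that gave a value; Mmp10 and Adam19 have none with a minimum of 5 FPKM, which they do not reach. The log2 difference of Mmp10 was -0.97 with a pseudocount of 0.1. That of Adam19 was -1.76 and -1.28 with pseudocounts of 0.1 and 0.5. It was -1.36 with TPM scaling, which here set an equal total per library over the listed genes alone. A smaller pseudocount, or values scaled up in this way, gives the pseudocount less weight. Without PAD4-/- replicates 3 and 4, Mmp12 stood at -0.86, Mmp14 at -0.28 and 662 genes were called higher; with median-of-ratios scaling 514 genes were called higher and 636 lower. Leaving out 1 library gave log2 differences of -1.27 to -1.05 for Mmp12, -0.84 to -0.71 for Mmp13, -0.78 to -0.50 for Mmp10, 0.054 to 0.44 for Mmp14 and -1.01 to -0.93 for Adam19, and 647 to 1682 genes called higher and 235 to 544 lower. The cause of these shifts was not tested beyond the alternatives' own construction.

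With the replicate block the log2 differences of the 5 genes were as before, since the design is balanced (-1.16 for Mmp12), and 1031 genes were called higher and 334 lower; beside the counts given above it changed no call of a named gene except those of Birc3 and Jun. The shared numbers showed no pairing: same-numbered libraries had correlations of their deviations from the group means, over genes, of -0.032, -0.14, -0.060 and -0.060 for replicates 1 to 4, and no library correlated best with its own number. Of the genes named from the lists by the rule, all but Furin, Il1b and Cebpb kept their side of the threshold in the alternatives that tested them. The depth behind the FPKM values is unknown, which limits Adam19 and Mmp10 most.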
